A study of Mus musculus with 3 samples.

Results

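Sub-cluster 1 was the middle-sized of 3 sub-clusters that the deposited annotation of lumbar spinal cord nuclei places under microglia. It held 76 of the 14662 nuclei of the study (0.518%) and 76 of its 223 microglial nuclei (34.1%), and its members were taken from the deposited table of nuclei by 2 columns, the refined cell type and the microglial sub-cluster. The nuclei came from 12 mice of 90 days of age, with 3 mice in each of 4 groups. Female WT and male WT mice were C57BL/6J littermates, and female SOD1G93A and male SOD1G93A mice carried the B6.Cg-Tg(SOD1*G93A)1Gur/J transgene, a mutant human SOD1 that is present in every cell of the animal rather than in one cell type. Nuclei of 1 mouse of each group were tagged with hashtag antibodies and mixed into 1 of 3 pools, A, B and C, so that a mouse is named here by its group and its pool.

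Microglia are the resident macrophages of the central nervous system, and they are recognised by the fractalkine receptor Cx3cr1, the colony stimulating factor receptor Csf1r, on which their survival depends, and the leukocyte phosphatase Ptprc (CD45). Neurons are marked by synaptic and cytoskeletal transcripts, and mature oligodendrocytes by those of the myelin they build around axons. Oligodendrocyte precursor cells (OPCs), the dividing cells that give rise to oligodendrocytes, are marked by the growth factor receptor Pdgfra and the proteoglycan Cspg4. Single-nucleus RNA sequencing counts unique molecular identifiers (UMIs), each standing for 1 captured RNA molecule, and levels are given below per 1000000 UMIs of the same set of nuclei (CPM).

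The label was not borne out by its markers. In the 3493404 UMIs of sub-cluster 1, Csf1r had 6 UMIs in 5 nuclei, or 1.7 CPM, against 21.1 CPM in sub-cluster 0, 189.7 in sub-cluster 2 and 1.8 in nuclei called Neuron. Ptprc (chromosome 1, 138062861 to 138175708, mm10) had 11 UMIs in 6 nuclei, or 3.1 CPM, against 24.6 CPM in sub-cluster 0, 249 in sub-cluster 2 and 1.6 in Neuron nuclei. Cx3cr1 (chromosome 9, 119901616 to 120069879) had 54 UMIs in 26 nuclei, or 15.5 CPM, against 36.4 CPM in sub-cluster 0, 195.6 in sub-cluster 2, 10.5 in Neuron nuclei and 14.0 in OPC nuclei. For all 3 markers the pooled level of sub-cluster 1 therefore lay closer to that of neurons and oligodendrocyte-lineage nuclei than to that of either other microglial sub-cluster, and the name microglia is not used for it below.

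The same held mouse by mouse for Csf1r and Ptprc, as far as few UMIs allow. Over the 10 mice with at least 3 nuclei of sub-cluster 1, the level of Csf1r had a median of 0 and a highest value of 7.27 CPM, while sub-cluster 0 of the same mice ran from 8.55 to 31.2 CPM. Those ranges did not overlap. Ptprc ran from 0 to 14.5 CPM in sub-cluster 1, with a median of 0.426, and from 14.8 to 62.4 CPM in sub-cluster 0, so that these ranges were barely apart. In these 10 mice 3 UMIs of sub-cluster 1 correspond to between 2.56 CPM (male WT, pool B) and 81.4 CPM (female WT, pool A). In the mice with few UMIs a level of 0 therefore does not exclude the level of sub-cluster 0. Cx3cr1 ran from 0 to 32.7 CPM in sub-cluster 1 and from 6.90 to 67.7 CPM in sub-cluster 0, and here the 2 sets overlapped. In Neuron nuclei of these mice Cx3cr1 ran from 7.91 to 13 CPM, inside the range of sub-cluster 1.

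Sub-cluster 1 was spread unevenly over mice and pools. The female WT mice of pools A, B and C gave 3, 15 and 7 nuclei, and the male WT mice gave 4, 22 and 4. The female SOD1G93A mice gave 1, 5 and 0 nuclei, and the male SOD1G93A mice gave 6, 6 and 3. It was thus found in 11 of 12 mice, and the 0 of 6 microglial nuclei of the remaining mouse allows a share of up to 50% by a limit of 3 counts and of up to 45.9% by the exact 95% interval. Pool B held 48 of the 76 nuclei (63.2%), although it held 41.5% of all nuclei, and pools A and C held 14 each. The WT mice gave 55 nuclei and the SOD1G93A mice 21.

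**Figure D1:**
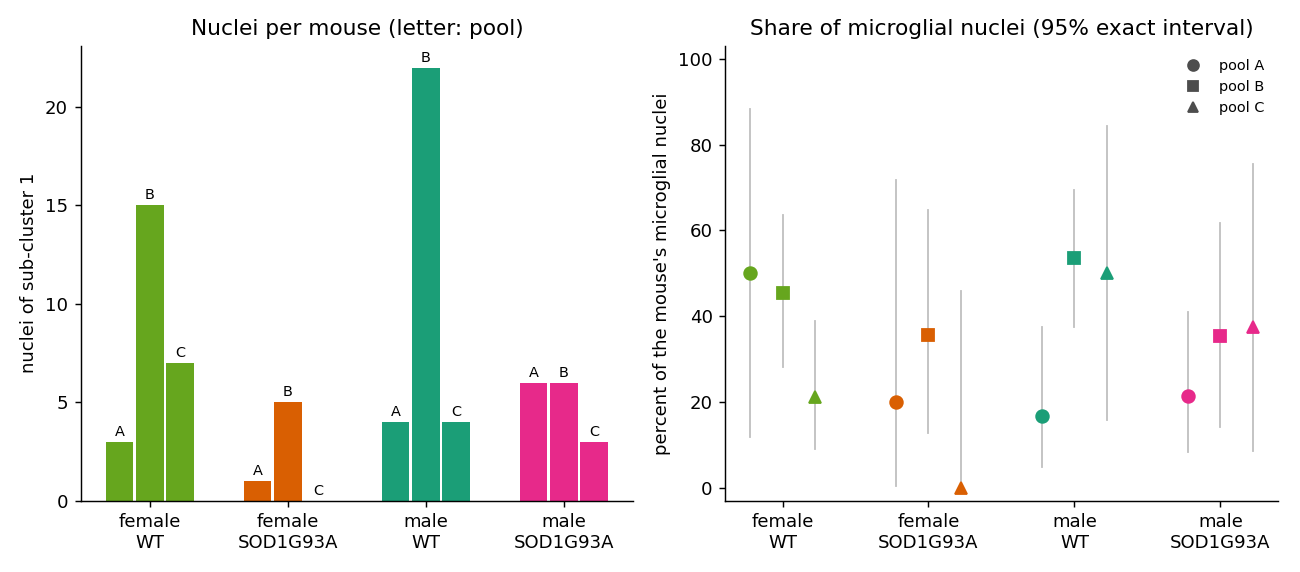
Left, nuclei of sub-cluster 1 in each mouse (bars, with the pool above each bar). Right, the percent of the microglial nuclei of each mouse that fell in sub-cluster 1 (points), with its 95% exact binomial interval (grey lines, counting error only). The male WT mouse of pool B gave 22 nuclei and the female SOD1G93A mouse of pool C gave 0, and most intervals of single mice overlap.

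As a share of the microglial nuclei of each mouse, sub-cluster 1 ran from 16.7 to 53.7% in the 6 WT mice, with a median of 47.7%, and from 0 to 37.5% in the 6 SOD1G93A mice, with a median of 28.4%. The groups overlapped. The mean was 25.0% ± 14.4 (SD, n = 6) in SOD1G93A and 39.5% ± 16.2 (SD, n = 6) in WT mice, and the share was lower in the SOD1G93A mouse in 5 of 6 pairs of the same sex and pool (mean difference -14.5 percentage points, exact two-sided sign-flip permutation test, p = 0.0625, where the smallest possible p is 0.0312). By pool the share was 22.2% in A, 45.7% in B and 25.5% in C. Counted against all nuclei with edgeR's quasi-likelihood test over 12 cell types and sub-clusters, sub-cluster 1 was 0.593-fold as abundant in SOD1G93A as in WT mice (adjusted p = 0.394) and 0.827-fold as abundant in female as in male mice (adjusted p = 0.717), and neither passed 0.05. The difference in the share exceeded the SD of the 6 differences within pairs, 11.8 percentage points, without passing the test.

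The nuclei of sub-cluster 1 were rich in RNA. They held a median of 28508 UMIs (range 9360 to 216990), compared with 71350.5 in sub-cluster 0, 12864.5 in Neuron, 10016 in OPC and 5786 in Oligodendrocyte nuclei. All 76 exceeded the median of Oligodendrocyte nuclei, 75 that of OPC nuclei and 70 that of Neuron nuclei, whereas 15 exceeded the median of sub-cluster 0. The UMIs per mouse summed to between 18960 in the female SOD1G93A mouse of pool A, from 1 nucleus, and 1172438 in the male WT mouse of pool B. All 76 nuclei carried 1 hashtag by the deposited call, which was fixed in advance, since the authors had removed hashtag doublets and untagged nuclei. Of 14662 nuclei, 30 shared their barcode with a nucleus of another pool, and 0 of these were in sub-cluster 1.

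The expressed genes pointed to neurons and to mature oligodendrocytes at once. The 10 genes with most UMIs were the nuclear non-coding RNA Malat1, the protocadherin Pcdh9, the cell adhesion gene Lsamp, Nkain2, the scaffold Magi2, the non-coding RNA Meg3, the neurexin-like Cntnap2, the receptor Lrp1b, the neuregulin Nrg3 and the splicing regulator Rbfox1. Some of these are at home in neurons and others in oligodendrocytes. Meg3 stood at 6259 CPM in sub-cluster 1, between 8499 in Neuron and 1885 in Oligodendrocyte nuclei, and Nkain2 stood at 7238 CPM, between 3199 and 15669. Of 1249 genes that differed at least 2-fold between Neuron and Oligodendrocyte nuclei, 1223 (97.9%) had a level in sub-cluster 1 between the 2, and the share was 98.5% in sub-cluster 0 and 92.1% in OPC nuclei.

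Neuronal markers were present in every nucleus. A list of 12 neuronal markers summed to a mean of 11358 CPM ± 1099 (SD, n = 10 mice) in sub-cluster 1, with a lowest mouse at 9193, a median of 11665 and a highest at 12395. In the same mice it stood at 16288 CPM ± 1021 in Neuron, 10556 ± 559 in sub-cluster 0, 7367 ± 1364 in OPC and 4077 ± 1002 in Oligodendrocyte nuclei. Every mouse's sub-cluster 1 was therefore above the highest Oligodendrocyte value, 5640 CPM, and below the lowest Neuron value, 15057 CPM. The same was true of sub-cluster 0, which ran from 9733 to 11391 CPM and overlapped sub-cluster 1. Among the members of the list, the synaptic vesicle sensor Syt1 had 4222 UMIs and was found in 76 of 76 nuclei, with 1209 CPM against 1843 in Neuron and 408 in Oligodendrocyte nuclei. Rbfox3 (NeuN), the nuclear protein used to stain neurons, had 203 CPM against 343 and 69.9, and the NMDA receptor subunit Grin1 had 245 CPM against 331 and 72.5. A separate list of 16 glutamate receptor genes stood at 15525 CPM ± 1535 (SD, n = 10) in sub-cluster 1 and at 19596 ± 850 in Neuron nuclei. This list stood at 15602 ± 1424 in OPC, 14976 ± 1071 in sub-cluster 0 and 8155 ± 1078 in Oligodendrocyte nuclei. It therefore did not set sub-cluster 1 apart from OPC nuclei or from sub-cluster 0.

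Mature oligodendrocyte markers were as general. A list of 12 of them summed to a mean of 6703 CPM ± 902 (SD, n = 10 mice), with a lowest mouse at 5523, a median of 6639 and a highest at 8379. It stood at 16633 CPM ± 1634 in Oligodendrocyte, 5060 ± 1539 in OPC and 734 ± 162 in Neuron nuclei. In sub-cluster 0 it stood at 6430 ± 580 and overlapped sub-cluster 1. Summed over all nuclei, those called Schwann_Meningeal were also close, at 13573 CPM for the neuronal list and 6877 for the oligodendrocyte list. Sub-cluster 1 stood at 11795 and 6588 CPM by that sum. The highest Neuron value in a mouse, 964 CPM, was below the lowest of sub-cluster 1. The transcription factor St18 stood at 1601 CPM in sub-cluster 1, against 140 in Neuron and 4026 in Oligodendrocyte nuclei, and Mbp, myelin basic protein, at 1013 CPM against 144 and 2831.

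OPC, astrocyte and microglial markers were low. The list of 10 OPC markers summed to 1425 CPM ± 476 (SD, n = 10 mice), from 948 to 2576 with a median of 1299, against 9357 ± 2852 in OPC and 1638 ± 96.1 in Neuron nuclei. The highest of these values, in pool A's female WT mouse, rested on 3 nuclei and 36877 UMIs. The list of 10 astrocyte markers stood at 1263 CPM ± 426, below the 1765 ± 162 of Neuron nuclei. Summed over all nuclei of sub-cluster 1, Gpc5 alone gave 1106 of the 1425 CPM of the astrocyte list. In sub-cluster 0 the OPC list stood at 2092 ± 538 and the astrocyte list at 2627 ± 746. Sub-cluster 1 was below these in 8 of 10 mice for the OPC list and in 9 of 10 for the astrocyte list. The 22 microglial markers together reached 183 CPM ± 66.6, with a lowest mouse at 77.3, a median of 179 and a highest at 305, against 158 ± 32.3 in Neuron, 190 ± 49.7 in Oligodendrocyte, 273 ± 95.1 in OPC and 600 ± 223 in sub-cluster 0. The lowest mouse of sub-cluster 0 stood at 324 CPM, so that sub-cluster 1 lay wholly below it. Oligodendrocyte nuclei ran from 136 to 290 CPM, and sub-cluster 1 reached past both ends of that range.

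**Figure D2:**
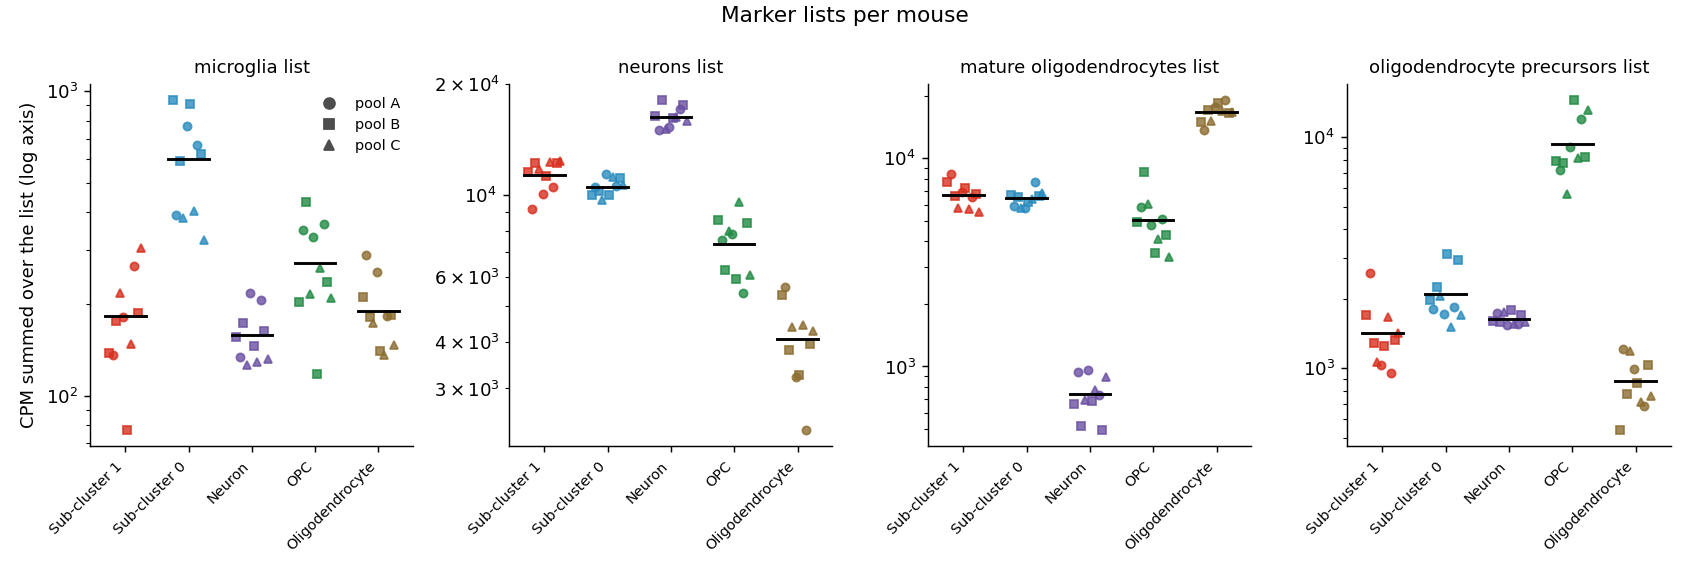
CPM summed over 4 marker lists (log axis) in each of the 10 mice with at least 3 nuclei of sub-cluster 1, for 5 sets of nuclei (points, shaped by pool, with the mean as a line). Sub-cluster 1 and sub-cluster 0 overlap between Neuron and Oligodendrocyte nuclei for the neuron list and the mature oligodendrocyte list. Sub-cluster 1 sits below sub-cluster 0 for the microglia list, and far below OPC nuclei for the precursor list.

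Of the 22 microglial markers, 21 had at least 1 UMI in sub-cluster 1 and Itgam was listed at 0 in every set. Several defining genes were near 0. Tmem119 and C1qb had 2 UMIs each, Trem2 and Tyrobp 1 each, C1qa 7 and C1qc 6. The members with most UMIs included the kinase Lyn with 163, the purinergic receptor P2ry12 with 132 and Dock2 with 70. Lyn was at 46.7 CPM in sub-cluster 1 and 34.1 in Neuron nuclei. P2ry12 was at 37.8 and 46.4 CPM, and Dock2 at 20.0 and 28.1. In Neuron nuclei these members stood far above Csf1r and Ptprc, so that a UMI of them did not mark a microglial nucleus here. Summed over all nuclei, the whole list stood at 188 CPM in sub-cluster 1 and 167 in Neuron nuclei, and it was higher in sub-cluster 1 in 7 of 10 mice. The mean log2 ratio over mice was 0.15, and its sign turned without the 25% of nuclei with most UMIs (-0.47), with nuclei weighted equally (-0.07) and without pool C (-0.10). After every nucleus was thinned to 2000 UMIs, 26 of 76 nuclei of sub-cluster 1 (34.2%, 95% exact interval 23.7 to 46.0) had a UMI of any microglial marker. The share was 25.7% in Neuron, 35.4% in OPC, 63.6% in sub-cluster 0 and 100% in the 15 nuclei of sub-cluster 2. Unthinned, it was 89.5% in sub-cluster 1 and 76.8% in Neuron nuclei. The interval covers counting error only and takes no account of the mice the nuclei came from.

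The 2 programmes were found in the same nuclei and not in separate nuclei of the sub-cluster. Neuronal markers made up 70.3 to 159 UMIs of each 10000 in single nuclei of sub-cluster 1, with a median of 112, and mature oligodendrocyte markers made up 37.2 to 117, with a median of 66.3. The medians were 161 and 3.1 in Neuron nuclei, 15.5 and 201 in Oligodendrocyte nuclei and 29.1 and 30.4 in OPC nuclei. All 76 nuclei were above the Oligodendrocyte median for the first list and above the Neuron median for the second. All 76 were also above the OPC median for each list, although the summed levels of OPC nuclei lay nearer. No nucleus reached the Neuron median for the neuronal list or the Oligodendrocyte median for the oligodendrocyte list. After thinning to 2000 UMIs, 76 of 76 nuclei kept at least 5 UMIs of each list, compared with 93.2% of sub-cluster 0, 6.49% of Neuron, 32.0% of Oligodendrocyte and 39.9% of OPC nuclei. This share was also high, 95.3%, among the 363 nuclei called Schwann_Meningeal that were deep enough to be thinned.

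**Figure D3:**
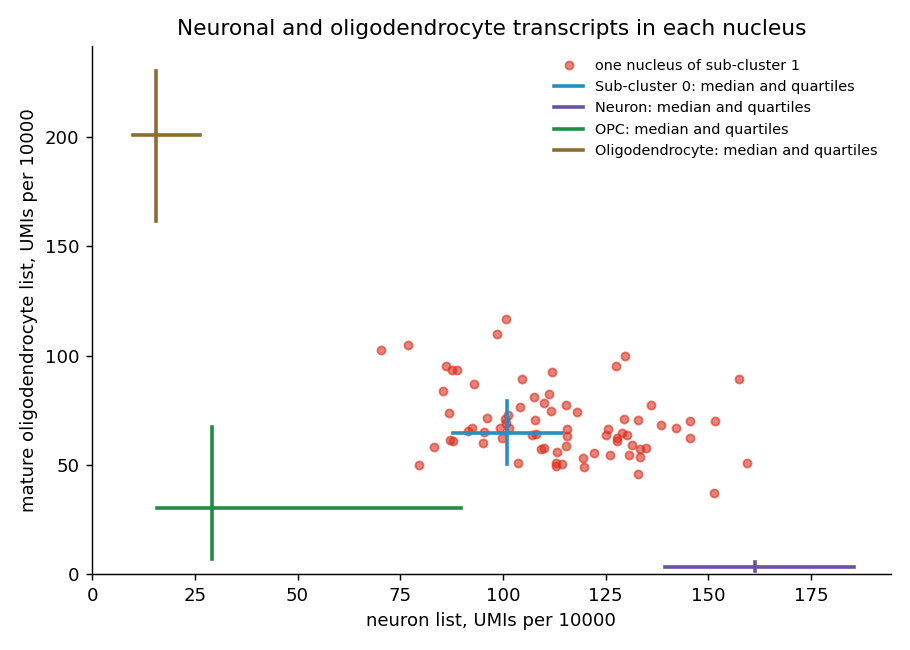
Each point is 1 of the 76 nuclei of sub-cluster 1, placed by the UMIs per 10000 from the neuron list (horizontal axis) and from the mature oligodendrocyte list (vertical axis). Crosses give the median and the quartiles of 4 other sets. The points form 1 cloud around the cross of sub-cluster 0, away from both axes and from the crosses of Neuron and Oligodendrocyte nuclei.

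In whole UMIs the content of both kinds was large. A nucleus of sub-cluster 1 had a median of 315 UMIs of neuronal markers and 205 of mature oligodendrocyte markers. The typical Neuron nucleus had 211 of the former and the typical Oligodendrocyte nucleus 112 of the latter, and 54 of 76 nuclei (71.1%) reached both of these values. Among Neuron nuclei 1.97% did so, among Oligodendrocyte nuclei 3.70%, among OPC nuclei 18.2% and in sub-cluster 0 80.3%. Transmitter genes were mixed too. Excitatory and inhibitory transmitter genes were both found in 25 nuclei, only inhibitory in 33, only excitatory in 11 and neither in 7. Both were found in 1418 of 8800 Neuron nuclei at their lower depth and in 88 of 132 nuclei of sub-cluster 0 at their higher depth.

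A mixture of 10 reference profiles, the 9 non-microglial cell types and sub-cluster 2, each built from the other 2 pools, was fitted to the summed UMIs of each mouse. In sub-cluster 1 the Neuron profile took 56.5% ± 9.9 (SD, n = 10 mice) of UMIs, the Oligodendrocyte profile 26.4% ± 8.7, the OPC profile 7.7% ± 8.6 and the profile of sub-cluster 2 7.0% ± 2.5. The Oligodendrocyte share was 13.3 to 15.9% in the 3 mice of pool C and 25.0 to 34.9% in the 7 mice of pools A and B, so that the pools did not overlap. The shares depended on how genes absent from a reference were treated, since that of sub-cluster 2 was 0.44% and that of the Oligodendrocyte profile 33.3% when 0.5 UMI was added to each gene, a treatment chosen after seeing the data. In sub-cluster 0 the same 4 profiles took 50.1%, 18.1%, 17.6% and 9.4%. The fit gave back 97.1% Neuron for Neuron nuclei, 90.6% Oligodendrocyte for Oligodendrocyte nuclei and 75.9% OPC for OPC nuclei. For sub-cluster 2, in 2 mice, it gave back 54.5% sub-cluster 2 and 37.6% Oligodendrocyte. That reference itself held 15680 CPM of mature oligodendrocyte markers, so that its share is not a measure of microglial RNA. Fitted one at a time, 71 of 76 nuclei of sub-cluster 1 (93.4%) took at least 10% from both the Neuron and the Oligodendrocyte profile, against 75% of sub-cluster 0, 3.75% of 881 Neuron nuclei and 9.17% of 218 Oligodendrocyte nuclei. Hashtags mark the mouse, so that 2 nuclei of 1 mouse in 1 droplet carry 1 hashtag, and the part of such droplets in these profiles was not tested.

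The deposited labels of single nuclei mostly differed from the name microglia as well. The SingleR label of whole clusters is not given here. Of the 76 nuclei, 62 came from cluster 15 and 14 from cluster 6 of the first clustering, which the authors treated as poorly defined, and all 76 shared 1 sub-cluster of those clusters. The same 2 clusters held 124 of the 132 nuclei of sub-cluster 0, with 106 from cluster 15 and 18 from cluster 6. The nucleus-level SingleR label was oligodendrocyte in 60, granulocyte in 9 and microglia in 2. By mapping to a spinal cord reference, 62 were labelled as neurons and 12 as oligodendrocytes. In sub-cluster 0, by comparison, SingleR labelled 49 of 132 as microglia and the mapping 18.

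Few genes set sub-cluster 1 apart from sub-cluster 0. Because the nuclei were clustered on these genes, differences between sets are given as description without a test. A gene was counted when its mean difference was at least 2-fold and it lay on the same side in all 10 mice. Of 8021 genes, 0 were higher in sub-cluster 1 than in sub-cluster 0 by this rule (0% of all) and 61 lower (0.761%). With 1 pool left out, fewer mice had to agree, and the counts were 0 to 5 and 96 to 181. Most of these 61 belonged to none of the marker lists. Microglial markers supplied 5, with 14 of 22 passing the filter on UMIs and a median log2 ratio of -3.03 against -0.14 over all genes, and astrocyte markers supplied 3 of 7. A gene could pass the filter of 200 UMIs through the other set alone, so that counts over the members that passed are description only here and in the next comparisons. Neuronal and mature oligodendrocyte markers supplied 0 of 12 each, with median log2 ratios of 0.12 and 0.06.

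The genes with the largest lower mean log2 ratio among those lower in every mouse included the phosphatase Inpp5d (-4.20 ± 2.30, SD over 10 mice), Ly86 (-4.09 ± 2.07), the selectin ligand Selplg (-3.92 ± 1.61), the inhibitory receptor Lair1 (-3.92 ± 1.51), Csf1r (-3.71 ± 1.14), the zinc transporter Slc39a12, the Hedgehog effector Gli3, the phagocytic receptor Mertk and the lymphoid and myeloid factor Ikzf1. Inpp5d stood at 58.3 CPM in sub-cluster 0 and 6.30 in sub-cluster 1, close to the 3.82 CPM of Neuron nuclei. The genes higher in every mouse differed by less, with Sc5d, of cholesterol synthesis, at 0.98 ± 0.82 and the glycine receptor subunit Glra2 at 0.78 ± 0.62. Others were Cntn6, Gm13629, 9330182L06Rik, Dpp10, Slc25a13, the sodium channel Scn1a and the potassium channel Kcnn2, at 0.29 to 0.44. Across 8021 genes the profile of sub-cluster 1 correlated with that of sub-cluster 0 at r = 0.98, OPC at 0.96, Neuron at 0.92 and Oligodendrocyte at 0.88 (Pearson, on log CPM, across genes that share libraries and are not independent).

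Against Neuron nuclei every mature oligodendrocyte marker was higher. Of 14499 genes, 398 were higher (2.75%) and 223 lower (1.54%) by the same rule. With 1 pool left out and fewer mice required to agree, the counts were 416 to 504 and 370 to 871. Mature oligodendrocyte markers supplied 12 of 12 on the higher side, with a median log2 ratio of 3.25 against -0.42 over all genes, markers of committed precursors 4 of 6 and the lineage factors Olig1, Olig2, Sox10 and Nkx2-2 2 of 4, and most of the 398 belonged to none of the lists. Neuronal markers supplied 0 of 12 in either direction, with a median of -0.56. The largest ratios were those of the paraspeckle RNA Neat1 (3.66 ± 0.52), Gm4593 (3.64 ± 0.35), St18 (3.58 ± 0.44), Prr5l (3.57 ± 0.63), Ninj2 (3.56 ± 0.96), the oligodendrocyte connexin Gjc3 (3.55 ± 0.51), Gm44866, A230001M10Rik, C030029H02Rik and Sec14l5. Neat1 stood at 387 CPM in sub-cluster 1 and 32.7 in Neuron nuclei. The largest lower ratios were those of the transcription factor Bnc2 (-3.99 ± 2.46), the thyrotropin-releasing hormone receptor Trhr (-3.03 ± 1.86), the tachykinin Tac2 (-2.48 ± 1.62) and the extracellular protein Reln (-2.37 ± 2.60), beside 6530403H02Rik, Cpne4, Gm47710, 4930438E09Rik, Gm6878 and Pkp2. Microglial markers supplied 0 of 15 in either direction.

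Against Oligodendrocyte nuclei the direction was the other way round. Of 8760 genes, 444 were higher (5.07%) and 623 lower (7.11%) in sub-cluster 1 by the same rule. Neuronal markers supplied 7 of 12 on the higher side, with a median log2 ratio of 1.49 against -0.29 over all genes, and glutamate receptors 8 of 16. Mature oligodendrocyte markers supplied 8 of 12 on the lower side, with a median of -1.13. Astrocyte markers supplied 7 of 10 on that side, with a median of -2.12, and committed precursor markers 3 of 6, with -1.50. The neurofilament gene Nefl was the exception among the neuronal markers, being lower in every mouse (-1.04 ± 0.75), and the precursor marker Lhfpl3 was higher in every mouse (1.41 ± 0.36). The largest higher ratios included those of AC129186.1, Tcerg1l, the collagens Col26a1 and Col25a1, Gm13629, 9330158H04Rik, the contactin Cntn4, Gm12236 and Nrg3os, at 2.06 to 2.23. The largest lower ratios were those of Gm32122 (-5.16 ± 2.37), with 37.2 CPM against 585, and of Scel, Gm7967, A930006I01Rik, Art3, the dicarboxylate transporter Slc13a3, the protease Bace2, Kif19a, Lmo7 and Gm20631, at -4.60 to -3.70.

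Precursor markers were lower in sub-cluster 1 than in OPC nuclei. Of 5148 genes, 5 were higher (0.0971%) and 131 lower (2.54%) by the rule. With 1 pool left out, fewer mice had to agree, and the counts were 23 to 29 and 162 to 177. OPC markers supplied 8 of the 8 that passed the filter on UMIs, with a median log2 ratio of -4.19 against 0.00 over all genes. Cspg4 (NG2) stood at 67.0 CPM in OPC nuclei and 3.72 in sub-cluster 1 (-5.08 ± 1.30), the precursor factor Sox6 at 845 and 43.5 (-4.86 ± 2.29), the matrix proteoglycan Vcan at 723 and 43.2 (-4.84 ± 1.68) and Pdgfra at 109 and 5.73 (-4.53 ± 1.83). These markers passed the filter through OPC nuclei, where they are high. The whole OPC list was lower in sub-cluster 1 than in OPC nuclei in 10 of 10 mice and higher than in Oligodendrocyte nuclei (876 CPM ± 225) in 9 of 10. Summed over all nuclei of sub-cluster 1, Lhfpl3 (705 CPM) and Tnr (382 CPM) made up most of the list's 1306 CPM. Against Oligodendrocyte nuclei 1 of the 6 members that passed the filter was higher by the rule, with a median log2 ratio of 0.16. Mybpc1 (-5.39 ± 2.38), Afap1l2, Dnah5, Rgcc, the axon guidance gene Ntn1 and Gm4876 completed the 10. The genes higher than in OPC nuclei in every mouse included Gm28928 (2.03 ± 1.79), Gm16083, March4 (1.2 ± 0.55), Gm40841, Rerg, Tspoap1, Hs3st5, the neuronal gene Stmn2 (0.96 ± 0.55) and Mtmr7.

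No gene was particular to sub-cluster 1. Of 3049 genes with at least 200 UMIs in it, 0 exceeded the highest of sub-cluster 0 and the 9 other cell types by 1.5-fold. The closest was the potassium channel subunit Kcnmb2, with 303 CPM against 214 in Neuron nuclei (1.41-fold), followed by the metabotropic glutamate receptor Grm3 with 808 CPM against 669 in Oligodendrocyte nuclei (1.21-fold). Pcolce2, Synpr, Ddb2, Fbxo8, Mdn1, Gm11659, St3gal3 and Cnrip1 stood 1.09- to 1.19-fold above the next set.

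Mitochondrial transcripts and hashtag counts took no part in the clustering, and both were tested. The median percent of mitochondrial UMIs of a mouse was 0.132 ± 0.0539 (SD, n = 10 mice) in sub-cluster 1, with a range of 0.0597 to 0.206. It was lower than in OPC nuclei in 10 of 10 mice (0.316 ± 0.18, exact two-sided sign-flip permutation test adjusted over 3 comparisons, p = 0.00586) and lower than in Neuron nuclei in 8 of 10 (0.195 ± 0.0503, adjusted p = 0.0117 by the same exact test). Sub-cluster 0 stood at 0.183 ± 0.152, with sub-cluster 1 lower in 7 of 10 mice, and that difference did not pass (adjusted p = 0.211, exact test). The smallest p that 10 mice allow before adjustment is 0.00195. Over all nuclei the median was 0.0900 in sub-cluster 1 and 0.0807 in the 67 Motor_Neuron nuclei, which held a median of 53245 UMIs. The part of depth in these differences was not tested.

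The hashtag margin, the deposited distance between the strongest and the next hashtag signal of a nucleus, was 1.38 ± 0.655 (SD, n = 10 mice) in sub-cluster 1. It was higher than in Neuron nuclei (0.640 ± 0.193) in 10 of 10 mice and higher than in OPC nuclei (0.57 ± 0.15) in 10 of 10 (adjusted p = 0.00293 each, exact sign-flip permutation test). It was lower than in sub-cluster 0 (2.06 ± 0.434) in 9 of 10 mice (adjusted p = 0.00586, exact test). UMIs per nucleus were ordered in the same way, with mouse medians averaging 34698 in sub-cluster 1, 75143 in sub-cluster 0 and 12512 in Neuron nuclei. The part of depth in the hashtag difference was not tested.

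**Figure D4:**
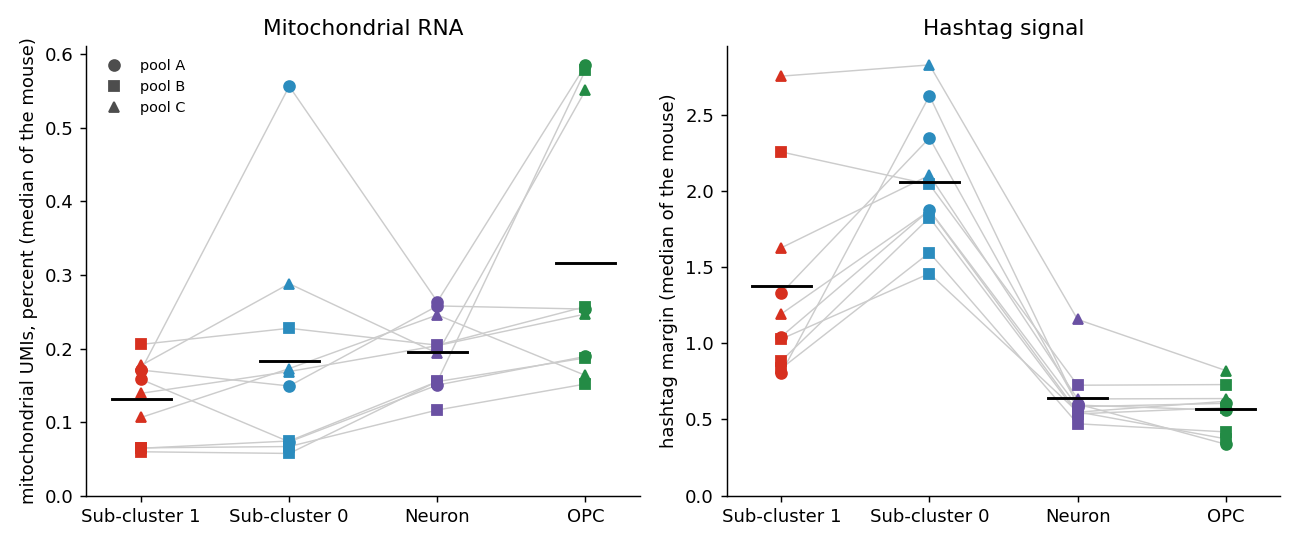
Median percent of mitochondrial UMIs (left) and median hashtag margin (right) of each of 10 mice in 4 sets of nuclei, with grey lines joining the values of 1 mouse and black lines at the mean. Sub-cluster 1 is below OPC nuclei in every mouse on the left, and between sub-cluster 0 and Neuron nuclei on the right in 9 of 10 mice.

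Transcripts of the opposite sex were few but not absent. Male nuclei of sub-cluster 1 gave 42 UMIs of Xist, the RNA of the inactive X chromosome, or 18.7 CPM, against 682 CPM in its female nuclei and 14.5 CPM in male Neuron nuclei. Of the 42 UMIs, 38 came from pool B's male WT mouse, at 32.4 CPM, and the other male mice ran from 0 to 13.4 CPM on 0 to 2 UMIs each, below the level of male Neuron nuclei. Of 45 male nuclei, 5 (11.1%) had at least 3 Xist UMIs, compared with 8.11% in sub-cluster 0 and 1.54% of the shallower Neuron nuclei. In the 31 female nuclei, 4 Y-linked genes gave 5 UMIs in all and never more than 1 in a nucleus.

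Genotype was then compared within sub-cluster 1, on UMIs summed per mouse in the 11 mice that had nuclei, with limma-voom and a term for the pool. Of 5660 genes tested, 1 passed a false discovery rate of 0.1 (0.0177%), and 149 had an unadjusted p under 0.05. That gene was Sod1 (chromosome 16, 90220754 to 90226329), which encodes superoxide dismutase and is the gene of the transgene. It stood at 54.2, 17.8 and 11.2 CPM in the female WT mice of pools A, B and C, and at 35.1, 20.5 and 21.8 CPM in the male WT mice. The female SOD1G93A mice of pools A and B stood at 211 and 127 CPM, and the male SOD1G93A mice at 192, 53.1 and 26.8 CPM. The groups overlapped, since the male SOD1G93A mouse of pool C, with 4 UMIs, was below 2 WT mice. The fitted log2 difference was 2.11 with a standard error of 0.33 (limma, adjusted p = 0.000468). It did not pass without the pool term, the fit with no replicate block (adjusted p = 0.201), nor at a minimum count of 30 (adjusted p = 0.148), nor with pool B's female SOD1G93A mouse left out (log2 difference 1.54, adjusted p = 0.879). With pool B's male WT mouse left out, 5 genes passed in place of 1. UMIs of the human transgene and of the mouse gene cannot be told apart in these counts.

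**Figure D5:**
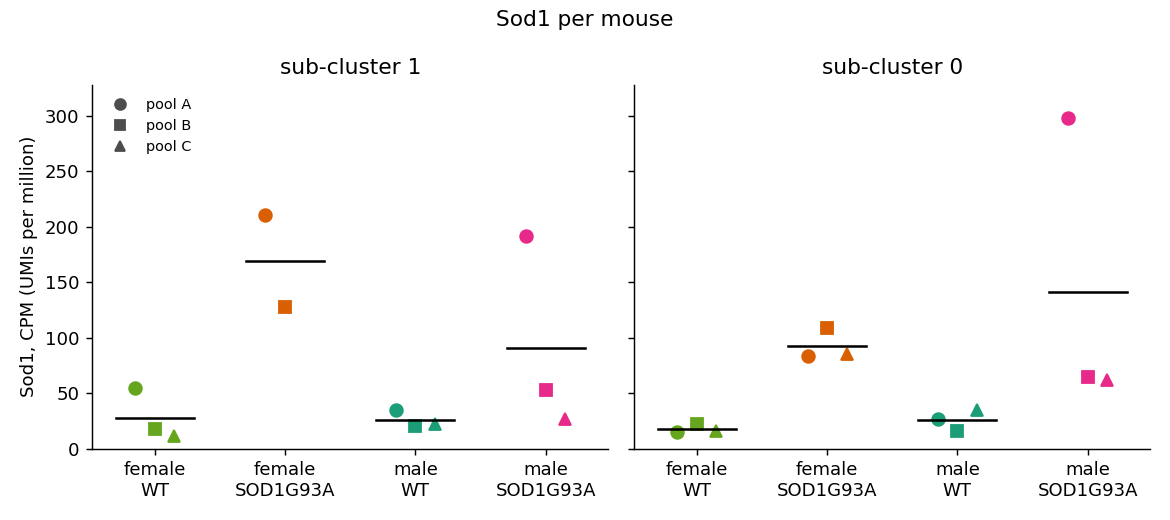
Sod1 in each mouse (CPM, points shaped by pool, with the group mean as a line) in sub-cluster 1 and sub-cluster 0. In sub-cluster 1 the SOD1G93A values run from 26.8 to 211 CPM and the WT values from 11.2 to 54.2 CPM, and the female SOD1G93A mouse of pool C has no nucleus of it.

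No member of the marker lists passed for genotype. The 12 mature oligodendrocyte markers had a median log2 difference of 0.02, the 12 neuronal markers of -0.03 and the 3 of 22 microglial markers with enough UMIs of -0.46, against a value close to 0 over all 5660 genes. On counts simulated with the library sizes of these mice, the fit recovered 31% of 200 genes changed 2-fold and 93% of 200 changed 4-fold. The 200 genes changed together, all genes shared 1 dispersion and no pool effect was added. Even so, a 2-fold change would often have been missed at this depth. Recovery of a gene that changes alone was not simulated, and these shares may be too high for it. In sub-cluster 0, with 132 nuclei, the same model called 36 of 8010 genes (0.449%), a count that ran from 0 with pool A's male WT mouse left out to 166 with pool A's female WT mouse left out. The difference between the genotype effects of the 2 sub-clusters, fitted in 1 model, passed for 1 of 6979 genes (0.0143%), Calcrl, and for Sod1 it was -0.27 with a standard error of 0.54 (limma, adjusted p = 1.00). Apart from Calcrl, no gene was shown to respond differently in the 2 sub-clusters.

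Calcrl, the receptor of calcitonin gene-related peptide and adrenomedullin (chromosome 2, 84330626 to 84425411), had a log2 difference of effects of 2.79 with a standard error of 0.54 (limma, adjusted p = 0.0894). In sub-cluster 1 it stood at 0, 3.55 and 11.2 CPM in female WT, 0 and 26.2 in female SOD1G93A, 0, 3.41 and 10.9 in male WT and 26.4, 53.1 and 6.70 in male SOD1G93A mice. In sub-cluster 0 it ran from 6.90 to 33.7 CPM in WT and from 9.25 to 28.0 CPM in SOD1G93A mice, on 2 to 58 UMIs a mouse. The call was lost without the pool term (adjusted p = 0.377), without the block for the mouse (limma, adjusted p = 0.120), without the robust option (adjusted p = 0.15), with only mice of at least 3 nuclei (adjusted p = 0.130), with no filter (adjusted p = 0.723), at a minimum count of 30, where Calcrl was not tested, and on leaving out any of 7 mice in turn, namely a female SOD1G93A mouse of any pool, or a male mouse of either genotype of pool A or B (limma, adjusted p from 0.162 to 0.999). With pool B's female WT mouse left out, Calcrl was not among the genes tested. The values of sub-cluster 1 rest on 0 to 11 UMIs a mouse, and 3 UMIs correspond to between 2.56 and 158 CPM depending on the mouse.

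The genes that passed for sex lay on the sex chromosomes. Of 5660 genes 5 passed (0.0883%), and each was on X or Y. Xist was higher in females by 5.93 on the log2 scale (standard error 0.52, limma, adjusted p = 6.43e-11) and its antisense partner Tsix by 4.64, and the 2 overlap so that their UMIs may be shared. Uty (-5.30), Eif2s3y (-4.08) and Ddx3y (-3.52), all on Y, were lower in females. Ddx3y did not pass on leaving out pool C's female WT mouse, pool A's or B's female SOD1G93A mouse or pool B's male WT mouse (limma, adjusted p from 0.153 to 0.330) or without the pool term (adjusted p = 0.439), and Tsix did not with pool B's female SOD1G93A mouse left out (adjusted p = 0.232). With pool B's male WT mouse left out, 8 genes passed in place of 5. The interaction of genotype and sex passed for 1 gene (0.0177%), Otof (chromosome 5, 30367062 to 30461932), which encodes otoferlin, a calcium sensor of vesicle release. Its log2 difference between the male and the female genotype effect was -5.58 with a standard error of 1.16 (limma, adjusted p = 0.0915). Otof stood at 0, 3.55 and 25.1 CPM in female WT, 158 and 22.4 in female SOD1G93A, 77.3, 7.68 and 79.9 in male WT and 3.31, 9.66 and 0 in male SOD1G93A mice, on 0 to 22 UMIs a mouse. Leaving out 1 mouse, the interaction passed for 0 to 10 genes, the highest with pool B's female WT mouse left out. The value of 158 CPM came from 3 UMIs in the 1 nucleus of pool A's female SOD1G93A mouse. The call was lost with edgeR (adjusted p = 0.103), with DESeq2 (adjusted p = 0.115), without the pool term (adjusted p = 0.969) and on leaving out pool A's female WT or male SOD1G93A mouse, pool B's female SOD1G93A mouse or any male WT mouse (limma, adjusted p from 0.175 to 0.650).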

How the data were processed

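UMI counts per gene and nucleus were deposited as raw counts, made by the authors with Cell Ranger 3.1 (STAR 2.5.1b) on a pre-mRNA reference of mm10. Hashtag doublets, untagged nuclei and nuclei with under 200 genes or over 10% mitochondrial UMIs had been removed by the authors, who clustered with Seurat 4.0.3 after removing mitochondrial genes. The deposited table of nuclei also holds the percent of mitochondrial UMIs, the hashtag margin, a score on a normalised scale, and the cluster labels. No doublet caller was run here. The members and the gene lists were chosen with earlier results of these data known.

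The mouse was the replicate. Levels are CPM on unscaled totals of the UMIs of a mouse, log2 ratios have 1 CPM added, and genes needed 200 UMIs in both sets together. Sex and genotype effects were fitted with limma 3.58.1 (TMMwsp factors, voom, robust eBayes, filterByExpr with a minimum count of 10, a term per group and per pool, false discovery rate of 0.1), and abundance with edgeR 4.0.16 at 0.05, in R 4.3.3. Alternatives used edgeR and DESeq2 1.42.0. Single values were tested with exact permutation tests in Python 3.11.15, and the mixture was fitted by expectation maximisation. The gene test and the mixture fit were checked on simulated counts, where the mixture erred by at most 2.17 percentage points. That error does not cover real nuclei fitted with references of other pools, where OPC nuclei gave back 75.9% OPC and sub-cluster 2 gave back 54.5% of its own profile. Named genes were the 10 of largest mean log2 ratio in each direction with the same sign in all 10 mice, the 10 nearest to being particular to sub-cluster 1, the 10 with most UMIs, list members, Sod1 and the genes that passed. Some genes that this rule names are not reported here. Positions are those of GENCODE for mm10. Intervals cover counting error only.

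The pool is the batch that 1 mouse of each group shared. Same-pool mice deviated together weakly (median r = 0.062 over 15 pairs, 3 above 0.1, against -0.03 for mice of different pools), and the pool term follows the study's methods.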

Additional observations from a re-analysis of the deposited data

Results flagged for a closer look

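Of 31 groups of 4 to 10 mice examined for 1 mouse far from the rest, 4 were found, and chance alone gives about 1 in 20. The OPC marker list stood at 2576 CPM in sub-cluster 1 of the female WT mouse of pool A, against 1706 in the next of 10 mice, and this mouse gave 3 nuclei and 36877 UMIs. The endothelial and mural list stood at 105 CPM in the male WT mouse of pool A, against 54.2 in the next. The median UMIs per nucleus were 76613.5 in the male WT mouse of pool C, against 45088 in the next, from 4 nuclei. Otof stood at 158 CPM in the female SOD1G93A mouse of pool A, against 22.4 in the next of 5 SOD1G93A mice, on 3 UMIs.

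Differences between groups were found for 2 genes by a test of the difference itself. For Otof in sub-cluster 1 the genotype effect differed between males and females by -5.58 on the log2 scale, and for Calcrl it differed between sub-cluster 1 and sub-cluster 0 by 2.79. Both rest on few UMIs per mouse.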

How the results depend on the processing

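The tests rest on 76 nuclei of 11 mice, 1 of which gave 1 nucleus, and on 5660 genes with enough UMIs. The markers' description kept its direction in the alternatives run, except that the microglia list against Neuron nuclei went from a log2 ratio of 0.15 to -0.47 without the 25% of nuclei with most UMIs, to -0.07 with nuclei weighted equally and to -0.10 without pool C. Against OPC nuclei that list moved to -1.16. With nuclei weighted equally, the neuron list against OPC nuclei stood at 1.08, the OPC list at -1.19 against sub-cluster 0 and at -3.43 against OPC nuclei. Thinned to 5000 UMIs, 56.6% of nuclei had a microglial UMI. Chosen after seeing the data, 0.5 UMI added to the references gave 0.44% for the sub-cluster 2 profile, and mice with at least 100000 UMIs gave 11 genes higher than OPC nuclei. The causes were not tested.

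Leaving out 1 pool, genes lower than sub-cluster 0 numbered 96 to 181, genes higher 0 to 5, genes lower than Neuron nuclei 370 to 871 and genes higher than OPC nuclei 23 to 29, with fewer mice required to agree. Leaving out 1 mouse, calls ran from 0 to 5 for genotype, 4 to 8 for sex, 0 to 10 for the interaction, 0 to 166 for genotype in sub-cluster 0 and 0 to 2 for the difference between the sub-clusters. The sex effect of Sod1 ran from -0.17 to 0.54 and its interaction from -1.56 to 0.16 over these fits, changing sign with pool B's female SOD1G93A mouse left out, and neither passed in any fit.

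With no replicate block (no pool term), 0 genes passed for genotype, the interaction, the difference and genotype in sub-cluster 0, and the block changed no call on abundance. The interaction passed for 0 genes with DESeq2, a minimum count of 30 or no robust option, and for 3 with mice of at least 3 nuclei. The difference passed for 0 genes with a minimum count of 30, no robust option, no filter or no block for the mouse. Genotype passed for 0 genes at a minimum count of 30. Sex passed for 8 genes with edgeR, 9 with no filter and 2 at a minimum count of 30. Genotype in sub-cluster 0 passed for 12 genes with edgeR. Abundance, mitochondrial percent and hashtag margin stayed on the same side of their thresholds in every alternative run. The share by genotype did so too, but with 1 mouse left out its pair was dropped. The pairs that remained could not give a p under 0.05 (exact sign-flip permutation test, p from 0.0625 to 0.125). Those settings therefore could not show whether the share is stable.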

Other observations

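Genes of disease-associated microglia stood at 79.9 CPM ± 34.4 (SD, n = 10 mice) in sub-cluster 1, 140 ± 42.5 in sub-cluster 0 and 73.8 ± 17.2 in Neuron nuclei, and at 229 ± 64.1 in OPC and 203 ± 38.2 in Oligodendrocyte nuclei, above sub-cluster 1 in 10 of 10 mice for both. Most of this list was Apoe and Cd9. Summed over all nuclei, they gave 50.7 and 20.0 of 79.9 CPM in sub-cluster 1, and 112 and 72.7 of 199 CPM in OPC nuclei. Complement genes stood at 15.7 ± 11.7 in sub-cluster 1, 48.9 ± 15.5 in sub-cluster 0, 7.56 ± 1.72 in Neuron, 15.3 ± 11.1 in OPC and 24.2 ± 14.3 in Oligodendrocyte nuclei. Antigen presentation genes stood at 11.1 ± 7.06, 20.7 ± 8.55, 15.7 ± 3.83, 36.4 ± 19.4 and 19.5 ± 4.93 in these 5 sets, in that order. Border macrophage and lymphocyte genes stood at 40.7 ± 32.0 in sub-cluster 1, 30.5 ± 23.5 in sub-cluster 0, 38.0 ± 4.5 in Neuron and 14.2 ± 4.76 in Oligodendrocyte nuclei. Sub-cluster 1 was above sub-cluster 0 in 6 of 10 mice and above Oligodendrocyte nuclei in 8. Only 4 of the 8 members had a UMI in sub-cluster 1. Summed over all nuclei the order turned, with 35.2 CPM in sub-cluster 1 and 36.5 in sub-cluster 0. The highest mouse, pool A's female WT mouse at 108 CPM, was one where 3 UMIs equal 81.4 CPM. Immediate early genes stood at 19.0 ± 7.41 in sub-cluster 1 and 25.7 ± 7.81 in Neuron nuclei.

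Lists of the oligodendrocyte lineage followed its mature markers. Committed precursor genes stood at 516 CPM ± 119 in sub-cluster 1, 112 ± 14.7 in Neuron and 1443 ± 225 in Oligodendrocyte nuclei, and the lineage factors at 69.8 ± 26.2, 10.5 ± 2.51 and 131 ± 35.2. A list of 8 cell cycle genes stood at 174 ± 38.0, 21.1 ± 4.87 and 502 ± 73.3, and nearly all of it was Anln, at 174, 16.9 and 513 CPM over all nuclei of these sets, a gene that mature oligodendrocytes also use. The other 7 members stood at 0 to 1.15 CPM each in sub-cluster 1. Endothelial and mural (24.9 ± 32.2), ependymal (16.3 ± 9.55) and Schwann cell and fibroblast genes (22.2 ± 14.2) were low in sub-cluster 1.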
